A study of Mus musculus with 2 samples.

Results

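Expression of 10 lineage marker genes was followed in endothelial cells (EC) sorted from the mouse aorta-gonad-mesonephros region (AGM). The 10 genes, of 12684 in the table, were Myog, Myf6, Actc1, Meox1, Sox9, Krt8, Krt18, Gata3, Tubb3 and Ebf2. They were chosen by their RPKM values in the comparison made here, so their direction describes these libraries and tests nothing. The question was which non-endothelial tissues around the aorta left transcripts in each sorted library. AGM were dissected at E10.5, and the sorted cells were positive for CD31 and negative for CD117 and CD45. The study's methods spell out this gate only for the cells from reporter embryos. Bulk EC came from wild-type littermates and were not gated on a reporter. GFP-depleted EC came from transgenic embryos in which the Runx1 +23 enhancer drives GFP, with the GFP-positive cells gated out. So say the labels and the study's methods, but its results text describes the sorted reporter cells as GFP-positive hemogenic endothelium set against vascular EC. The labels were followed, and if they are wrong the GFP-depleted values are those of GFP-positive cells. The strain label Runx1+23GFP is shared by both samples, with genotype WT for bulk EC and GFP+ for GFP-depleted EC. The number of embryos behind each sample is not given in the sources used here. Each group had 1 library, so there was no replicate check, no SD and no p-value.

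The AGM holds more than the aortic endothelium. Somites flank the neural tube and split into dermomyotome, from which muscle arises, and sclerotome, from which cartilage and bone arise. The mesonephric duct and tubules are epithelia ventrolateral to the aorta, sympathetic neurons gather beside it, and mesenchyme surrounds it. A gate on CD31 is meant to leave all of these out, and each has transcripts that endothelium makes little of.

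Levels are RPKM, reads scaled to gene length and to library depth, which allows genes to be compared within a library. Read numbers were recovered approximately from the values and came to about 14630800 for GFP-depleted EC against 109788000 for bulk EC, which was 7.50 times deeper. Intervals are exact 95% intervals that cover counting error only, as PCR copies are not independent molecules. The endothelial genes Pecam1 (153.9 RPKM in GFP-depleted EC against 154.5 in bulk EC) and Cdh5 (81.5 and 72.9) were abundant and nearly equal. Wherever a pair of levels is given, that of GFP-depleted EC comes first. Runx1, whose enhancer drives the reporter, stood at 0.62 and 0.66 RPKM, within 1.5 fold of each other. The lowest mean of the 2 values of any entry was 0.50 RPKM. A gene near 0 in one library is therefore in the table only if its level in the other was about 1 RPKM or more, and such a gene had to differ.

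All 10 markers were higher in bulk EC by the size rule used here, a plain ratio above 1.5 with at least 0.3 RPKM in 1 library. With 0.3 RPKM required in both, Myf6, Krt8, Meox1 and Ebf2 would not be compared and 6 markers would pass. Over all genes 23.6% were higher in bulk EC against 15.3% in GFP-depleted EC by that rule. Among the 6900 genes with a mean level within the range of the markers, the shares were 27.3% and 19.2%. Of all genes past the rule 60.7% were higher in bulk EC, and 50.8% after quantile scaling. All 10 were also past 2 fold toward bulk EC, where 13.3% of all genes lay. Of them 6 were past 5 fold (Myf6, at 0, counted among them), against 2.82% of all genes. Both shares are over genes of all levels and were not matched to the level of the markers. Myf6, Krt8, Meox1 and Ebf2 were near 0 in GFP-depleted EC, so their presence in the table alone required a large difference. The contrast with all genes is therefore no support for a direction. The median log2 ratio of the markers, with bulk EC as the denominator and 0.3 added to both values, was -1.94, beside -0.02 over all genes. Together the markers summed to 17.0 RPKM in GFP-depleted EC against 72.6 in bulk EC, which is 11.0% and 47.0% of the Pecam1 level. In a bulk sample, fewer cells of a type and less RNA per cell cannot be told apart.

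**Figure D1:**
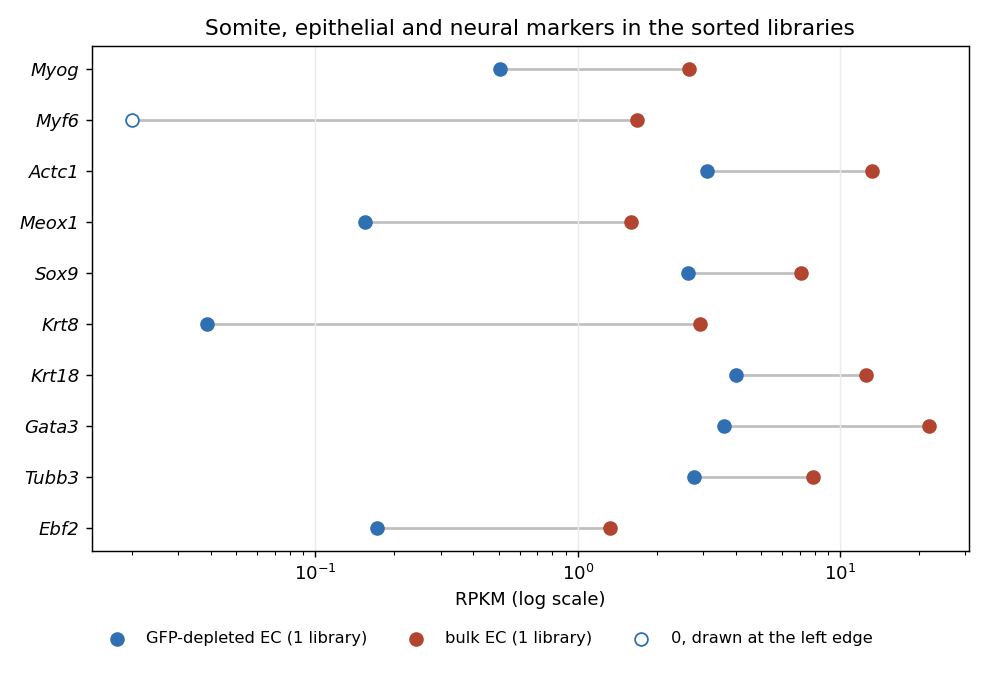
Level of each of the 10 markers in RPKM (log axis) in the single GFP-depleted EC library (blue) and the single bulk EC library (red), with a grey line joining both values of a gene. Every red point lies to the right of its blue point; 5 genes sit between 2.62 and 3.99 RPKM in GFP-depleted EC, the other 5 at 0.503 or below, and the value of 0 for Myf6 is drawn as an open circle at the left edge.

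The markers fell into a higher and a lower set in each library, with the same genes in each. In bulk EC the higher set was Gata3, Actc1, Krt18, Tubb3 and Sox9, from 21.7 down to 7.06 RPKM. The lower set there was Krt8, Myog, Myf6, Meox1 and Ebf2, from 2.92 down to 1.33 RPKM. In GFP-depleted EC the order was Krt18, Gata3, Actc1, Tubb3 and Sox9, from 3.99 down to 2.62 RPKM, and no neighbours among these 5 differed beyond their counting intervals. Sox9 and the next gene, Myog (0.503 RPKM, interval 0.254 to 0.910), did differ beyond them. Below Myog came Ebf2, Meox1, Krt8 and Myf6, again with overlapping intervals between neighbours. In bulk EC the intervals overlapped only for Actc1 and Krt18, for Krt8 and Myog, and for Myf6 and Meox1. The summed level of the higher set went from 16.1 RPKM in GFP-depleted EC to 62.4 in bulk EC, and that of the lower set from 0.869 to 10.2.

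The lower set rested on few reads in the shallower library. It held about 28 reads in GFP-depleted EC in all, where its bulk EC levels would have given about 302 reads at the same depth. Each gene of the higher set held between 74 and 210 reads there, so the size of its ratio is the better measured. Differences of the higher set ran from 2.69 to 6.01 fold.

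**Figure D2:**
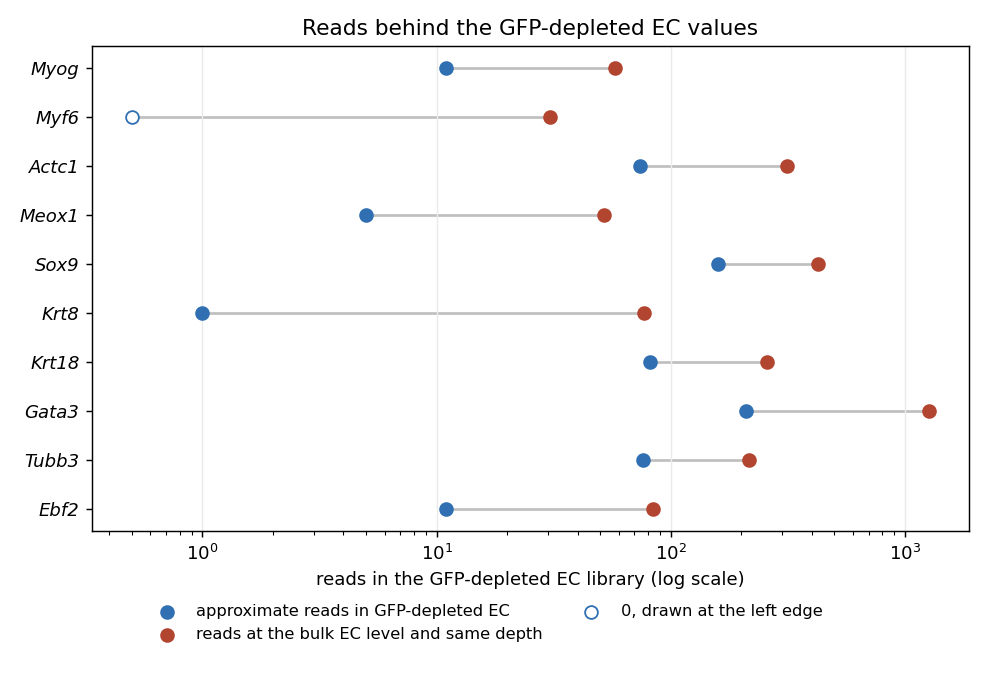
Approximate number of reads behind each value in the GFP-depleted EC library (blue, log axis) and the number that the bulk EC level of that gene would give at the same depth (red), 1 library per group. Krt8 had 1 read where 77.2 would match the bulk EC level, Myf6 had 0 (open circle at the left edge) in place of 30.7, and Gata3 had 210 in place of 1265.

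The first group is the muscle lineage. Myog (ENSMUSG00000026459, chromosome 1, 136186566 to 136189124, plus strand, mm9) encodes myogenin, the basic helix-loop-helix factor that drives myoblasts into differentiation. It was at 0.503 RPKM in GFP-depleted EC against 2.66 in bulk EC. The difference was 5.29 fold (2.90 to 10.6), from about 11 and 433 reads. Myf6 (ENSMUSG00000035923, chromosome 10, 106929909 to 106931793, minus strand) encodes MRF4, a factor of the same family that acts in early somites and again in maturing fibres. It was listed at 0 in GFP-depleted EC but at 1.68 RPKM in bulk EC, about 230 reads. A listed 0 at this depth allows up to 0.164 RPKM at 3 reads, and the exact interval used for the other values reaches 0.202 RPKM. It was 1 of 58 genes listed at 0 in GFP-depleted EC, none of which was above 5.02 RPKM in bulk EC. Myf5 and Myod1, the factors that determine the muscle lineage, were without an entry and were not analysed here. Myf5 lies 6726 bases from Myf6 in the mm9 annotation.

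Actc1 (ENSMUSG00000068614, chromosome 2, 113873024 to 113878547, minus strand) encodes the cardiac alpha actin that embryonic skeletal muscle also makes. It was at 3.11 RPKM in GFP-depleted EC against 13.2 in bulk EC, a 4.25-fold difference (3.35 to 5.40). The smooth muscle actin Acta2 (11.9 and 25.2 RPKM, 2.12 fold) and the skeletal actin Acta1 (0.993 and 3.06 RPKM, 3.09 fold) were higher in bulk EC as well, as was the enteric smooth muscle actin Actg2 (0.155 and 0.991 RPKM). The cytoplasmic actins Actb (6807 and 5080 RPKM) and Actg1 (162.4 and 160.7) were not. In this family 4 of 6 genes passed the rule (66.7%, beside 23.6% over all genes), each of them a muscle form. Without Actc1, which was chosen on this contrast, it was 3 of 5. Actg2 had about 4 reads in GFP-depleted EC, and a gene so low there had an entry only if it differed. The count is therefore no support for a direction. Reads of closely related actins may be split between them, although a search of the mm9 genome found no other locus at 95% identity over 100 bases for the Actc1 transcript.

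Other genes of the muscle list did not move as a block. Of its 20 genes 12 had an entry, 6 of them higher in bulk EC against 1 in the GFP-depleted library, with a median log2 ratio of -0.58. Without Myog, Myf6 and Actc1 the count was 3 of 9 higher in bulk EC (33.3%, beside 23.6% over all genes) and 1 in GFP-depleted EC. The median was then -0.03, turning to 0.21 after GC correction, in which the trend of the log2 ratio over exonic GC content was subtracted. Those 3 were Acta1, the intermediate filament gene Des (0.365 and 1.07 RPKM, 2.93 fold) and the fast myosin light chain gene Myl1 (0.113 and 0.986 RPKM, on about 3 reads in GFP-depleted EC). The troponin genes Tnnt1 (14.4 and 12.1 RPKM), Tnni1 (12.9 and 14.04) and Tnnt2 (6.70 and 6.87) and the embryonic light chain gene Myl4 (6.78 and 5.58) stayed within 1.5 fold. Tnnc1, the slow troponin C gene, was at 3.11 RPKM in GFP-depleted EC against 1.69 in bulk EC. Its whole exonic length is shared with another gene in the annotation, so its reads may belong to either. Mef2c, a factor of muscle and of endothelium, was the most abundant of the list at 64.7 and 49.8 RPKM. Of 14 regulators that act with or against Myog, 10 had an entry and 1 passed the rule. That gene was Id1, a helix-loop-helix inhibitor of myogenic factors, at 14.3 RPKM in GFP-depleted EC against 25.9 in bulk EC, with a log2 ratio of -0.56 after GC correction, inside 1.5 fold.

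The promoter windows of Myog and Actc1, the muscle members with an entry in the RefSeq promoter table, are shown for the sites that muscle factors can bind. They run from 250 bases before to 50 bases after the RefSeq start on GRCm38.p6, a different build from that of the files, at chr1:134289754-134290053 (plus strand) and chr2:114052826-114053125 (minus strand). Capitals mark matches on either strand to the E-box CANNTG, to the CArG box bound by serum response factor, and to TATAAA. Such matches stand in 72.3%, 1.63% and 13.6% of all 32851 promoter windows of the table, respectively.
Myog: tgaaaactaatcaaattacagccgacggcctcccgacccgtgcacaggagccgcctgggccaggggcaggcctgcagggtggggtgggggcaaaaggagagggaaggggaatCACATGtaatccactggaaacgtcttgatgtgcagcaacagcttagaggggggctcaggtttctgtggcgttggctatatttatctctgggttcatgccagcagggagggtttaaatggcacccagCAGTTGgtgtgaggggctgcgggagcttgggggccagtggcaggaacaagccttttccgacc
Actc1: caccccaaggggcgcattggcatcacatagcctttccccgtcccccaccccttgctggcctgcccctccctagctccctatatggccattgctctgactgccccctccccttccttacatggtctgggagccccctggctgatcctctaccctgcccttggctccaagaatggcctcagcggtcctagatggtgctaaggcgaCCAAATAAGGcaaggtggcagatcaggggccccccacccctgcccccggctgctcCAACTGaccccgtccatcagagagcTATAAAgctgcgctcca
The Myog window held 2 E-boxes, and the Actc1 window held 1 of each motif. A match is a description of letters and not of a bound site.

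The next group holds the other somite genes. Meox1 (ENSMUSG00000001493, chromosome 11, 101738838 to 101755678, minus strand), a homeobox gene of the early somite and later of sclerotome and dermomyotome, was at 0.155 RPKM in GFP-depleted EC against 1.59 in bulk EC. The difference was 10.3 fold (4.42 to 32.2), resting on about 5 and 390 reads. Its partner Meox2 was without an entry. Of 15 dermomyotome and somite genes only 3 had one: Meox1, the somite factor Tcf15 (2.20 and 3.45 RPKM, 1.57 fold, 1.08 to 2.29, but with a log2 ratio of 0.56 toward GFP-depleted EC after GC correction) and Six4 (0.669 and 0.851 RPKM, 1.27 fold). Pax3 and Pax7, which mark the dermomyotome, were not analysed here.

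Sox9 (ENSMUSG00000000567, chromosome 11, 112643538 to 112649063, plus strand), the high-mobility-group factor that commits sclerotome cells to cartilage and also acts in gonad and neural crest, was at 2.62 RPKM in GFP-depleted EC against 7.06 in bulk EC. This difference of 2.69 fold (2.29 to 3.17) was the smallest plain ratio of the 10, with an interval that overlaps that of Tubb3, and after GC correction Tubb3 and Krt18 had the smaller log2 ratios. The cartilage factors that work with it stayed within 1.5 fold, with Sox5 at 0.818 and 1.21 RPKM and Sox6 at 0.923 and 1.10. Hapln1, a link protein of the cartilage matrix that was listed as a sclerotome gene, was high in both libraries at 145.1 and 127.0 RPKM. Of 12 sclerotome and cartilage genes, 4 had an entry and Sox9 alone passed the rule.

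Among the nephric and epithelial markers, Gata3 (ENSMUSG00000015619, chromosome 2, 9779049 to 9800227, minus strand) had the highest level in bulk EC and the largest difference in RPKM. It encodes a zinc finger factor needed in the nephric duct, in sympathetic neurons and in T cells. Its level was 3.62 RPKM in GFP-depleted EC against 21.7 in bulk EC, a 6.01-fold difference (5.25 to 6.94) from about 210 and 9490 reads. Which of the sorted cells made Gata3 was not tested. Other annotated genes share 5.83% of its exonic bases. In the same family Gata1 (0.473 and 8.46 RPKM), a factor of blood cells, and Gata2 (6.26 and 11.8 RPKM) were higher in bulk EC. Gata6 (1.28 and 1.65 RPKM) was within 1.5 fold. After GC correction Gata2 was inside 1.5 fold too, at a log2 ratio of -0.32. Of 14 nephric and gonadal genes only Gata3 and Sall1, a zinc finger factor of the kidney mesenchyme, had an entry. Sall1 was at 0.754 RPKM in GFP-depleted EC against 1.25 in bulk EC (1.66 fold, 1.27 to 2.20). After GC correction Sall1 was inside 1.5 fold, at a log2 ratio of -0.47. The duct genes Pax2 and Lhx1 and the coelomic gene Wt1 were without one.

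Krt8 and Krt18 encode the type II and type I keratins that pair into the filaments of simple epithelia. Krt8 (ENSMUSG00000049382, chromosome 15, 101827142 to 101834742, minus strand) was at 0.0385 RPKM in GFP-depleted EC, about 1 read, and 2.92 in bulk EC, about 579 reads. Its ratio of 75.9 fold has a counting interval of 13.8 to 3053, so its size is poorly fixed. Krt18 (ENSMUSG00000023043, chromosome 15, 101858659 to 101862451, plus strand), 23917 bases away, was at 3.99 RPKM in GFP-depleted EC against 12.5 in bulk EC, a 3.14-fold difference (2.51 to 3.96). Krt18 was at 104 times the level of Krt8 in GFP-depleted EC (18.5 to 4226, with about 1 Krt8 read) and at 4.29 times in bulk EC (3.91 to 4.72). The Krt8 value is uncertain in both libraries. A second locus on chromosome 7 (24142113 to 24143830, mm9), inside the annotated span of Nlrp4e, matched its transcript at 97.9% identity over 1718 bases, and how the authors treated reads that fit both is not given. Gapdh, with 48 such loci, stood at only 2.68 and 2.19 RPKM.

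The promoter windows of the keratin pair are printed in the same way and on the same build, at chr15:102004293-102004592 (Krt8, minus strand) and chr15:102027966-102028265 (Krt18, plus strand), since the proteins form filaments as a pair.
Krt8: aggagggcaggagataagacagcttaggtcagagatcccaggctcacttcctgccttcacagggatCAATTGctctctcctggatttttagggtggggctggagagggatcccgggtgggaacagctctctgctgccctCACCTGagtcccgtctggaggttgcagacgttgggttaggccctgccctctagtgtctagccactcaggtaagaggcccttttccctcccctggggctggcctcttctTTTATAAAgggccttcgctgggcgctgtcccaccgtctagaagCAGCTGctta
Krt18: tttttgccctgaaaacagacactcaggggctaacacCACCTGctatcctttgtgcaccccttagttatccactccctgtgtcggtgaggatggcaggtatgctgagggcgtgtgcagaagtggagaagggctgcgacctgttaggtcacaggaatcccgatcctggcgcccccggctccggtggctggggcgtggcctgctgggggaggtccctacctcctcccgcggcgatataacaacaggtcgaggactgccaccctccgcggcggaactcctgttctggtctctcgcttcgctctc
The Krt8 window held 3 E-boxes and 2 overlapping TATAAA matches, 1 on each strand. The Krt18 window held 1 E-box and no TATAAA match.

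The rest of the epithelial list was mixed. Of 19 genes 6 had an entry, and besides the keratins only the tight junction gene Ocln was higher in bulk EC (0.807 and 1.99 RPKM, 2.47 fold, 1.85 to 3.34). The protease inhibitor gene Spint2 was higher in GFP-depleted EC (4.60 and 1.71 RPKM, 2.70 fold), and so was the membrane protease gene Prss8 (0.888 and 0.167 RPKM, 5.31 fold). Prss8 rested on about 24 and 34 reads, and at so low a level in bulk EC its entry alone required a difference. With 0.3 RPKM required in both libraries Prss8 would not be compared. Cldn7 was at 0.639 and 0.586 RPKM, and past 1.5 fold toward GFP-depleted EC after GC correction (log2 ratio 0.62). The core epithelial adhesion genes Cdh1 and Epcam were without an entry. Of further keratins, Krt20 was at 0.918 and 3.29 RPKM, Krt10 at 4.20 and 5.86 and Krt222 at 0.434 and 0.590. Of these 3 only Krt20 was past 1.5 fold (3.58 fold, 2.41 to 5.49).

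Tubb3 (ENSMUSG00000062380, chromosome 8, 125935453 to 125945907, plus strand) encodes the class III beta tubulin by which neurons are commonly recognised. It was at 2.76 RPKM in GFP-depleted EC against 7.89 in bulk EC, a 2.85-fold difference (2.25 to 3.62). A locus on chromosome 6 (136348448 to 136350157, mm9) matched its transcript at 95.04% identity over 1710 bases, so this value is uncertain too. Among the other beta tubulins, Tubb1 of platelets was at 2.0 and 18.6 RPKM (9.28 fold), whereas Tubb2a (77.1 and 73.3 RPKM), Tubb2b (11.7 and 17.2), Tubb2c (230.5 and 177.8), Tubb5 (471.1 and 546.9) and Tubb6 (744.3 and 499.8) stayed within 1.5 fold, although Tubb6 and Tubb2c reached log2 ratios of 1.03 and 0.64 after GC correction.

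Of 23 neural and neural crest genes, 8 had an entry, 4 of them higher in bulk EC against 0 in the GFP-depleted library, and the median log2 ratio was -0.55. Beside Tubb3 these were the neurofilament genes Nefm (0.254 and 0.993 RPKM, 3.91 fold) and Nefl (0.570 and 0.960 RPKM, 1.69 fold, 1.15 to 2.59) and the homeobox gene Isl1 of motor and sympathetic neurons (4.05 and 6.999 RPKM, 1.73 fold). The annotation shares 19.2% of the exonic bases of Nefm and 32.8% of those of Nefl with other genes. The growth cone gene Gap43 (177.4 and 150.1 RPKM) and the microtubule regulator gene Stmn2 (47.0 and 69.5 RPKM), both usually taken as neuronal, were abundant in both libraries and within 1.5 fold. After GC correction the log2 ratio of Stmn2 was -0.66, just past 1.5 fold toward bulk EC. That of Nefl was then -0.57, just inside 1.5 fold, so the count stayed at 4 with 1 gene exchanged. The progenitor gene Sox2 and the crest gene Sox10 were without an entry.

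Ebf2 (ENSMUSG00000022053, chromosome 14, 67852129 to 68048604, plus strand), a helix-loop-helix factor of mesenchyme and of some neurons, had the lowest level of the 10 in bulk EC. It was at 0.172 RPKM in GFP-depleted EC against 1.33 in bulk EC, a 7.70-fold difference (4.26 to 15.4) from about 11 and 633 reads. Its relative Ebf1, which also acts in B cells, was at 8.94 and 20.6 RPKM (2.30 fold), and Ebf3 was at 2.39 and 3.06 (1.28 fold). In the mesenchyme and mural list 11 of 18 genes had an entry, 7 of them higher in bulk EC against 1 in the GFP-depleted library (median log2 ratio -0.67). The fibrillar collagen gene Col3a1 was at 0.337 and 2.80 RPKM (8.30 fold, 6.15 to 11.7). The matrix proteoglycan gene Lum ran the other way, at 1.80 and 0.206 RPKM (8.74 fold). Pdgfra (0.410 and 0.831 RPKM), Twist1 (0.761 and 1.67) and Col1a2 (0.596 and 0.897), the last 1.51 fold, were also past the rule. Twist1 and Col1a2 fell inside 1.5 fold after GC correction, at log2 ratios of -0.18 and -0.54, which left 5 of the 7 past it.

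Over the 7 tissue lists, 46 of 121 genes had an entry, 25 higher in bulk EC against 4 in the GFP-depleted library. With the 10 markers left out it was 15 of 36 higher in bulk EC against 4 in the GFP-depleted library, with a median log2 ratio of -0.38. That is 41.7% higher in bulk EC, beside 23.6% over all genes, the background share for each list. Among genes with a mean level within the range of the markers the share was 27.3%. Neither share was matched to the level of the 36 genes. After GC correction the counts were 11 and 5, and after quantile scaling 11 and 4. For 8 of the 15 the whole counting interval lay past 1.5 fold. These lists were written with earlier results known, and the entry limit bears on their low genes, so the counts are no support for a direction. The summed level of the 36 genes was 537.3 RPKM in GFP-depleted EC against 536.8 in bulk EC, set mainly by Gap43, Hapln1, Stmn2 and Mef2c. Of the 121 genes 75 had no entry, among them Pax3, Pax7, Myf5, Myod1, Pax1, Pax2, Lhx1, Wt1, Cdh1, Epcam, Sox2, Sox10 and Elavl3. These examples were not chosen by a rule set beforehand, and none was analysed here. The label of somite, nephric, epithelial or neural cells rests on few genes higher in bulk EC (2, 2, 3 and 4, respectively). Several of these are also made by other cell types. Whether the endothelial cells themselves made some of these transcripts was not tested.

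**Figure D3:**
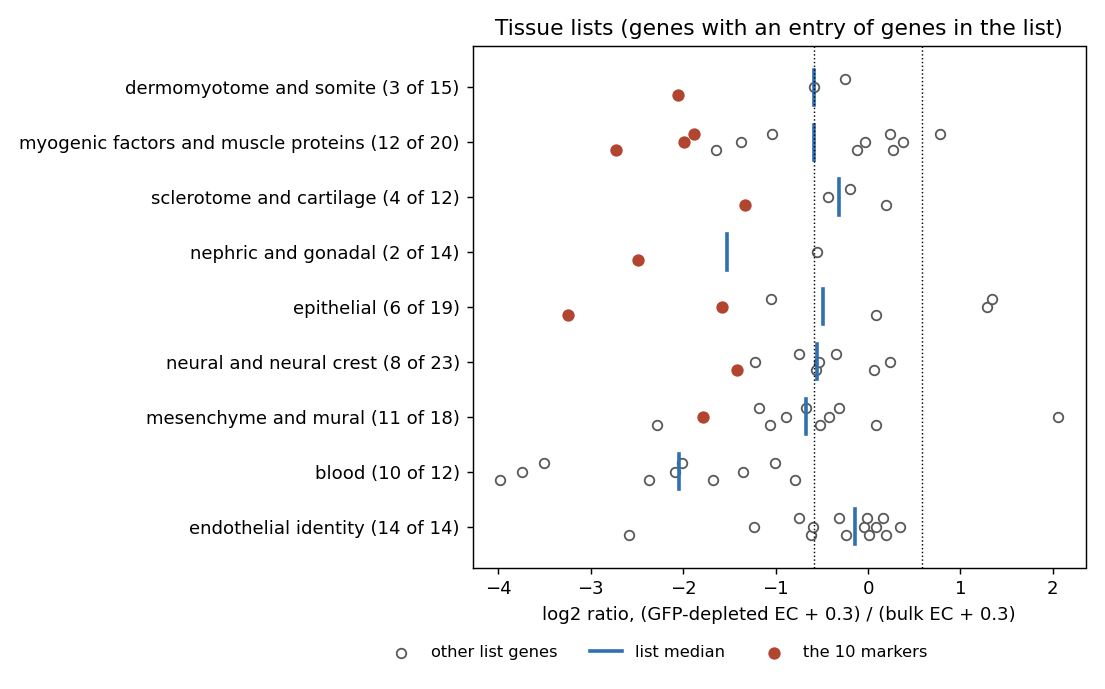
Log2 ratio (GFP-depleted EC over bulk EC, 0.3 added to both) of every gene with an entry in 7 tissue lists and in the blood and endothelial lists, 1 point per gene, 1 library per group; filled points are the 10 markers, blue bars are list medians and dotted lines mark 1.5 fold. The filled points are the lowest of their list except in the mesenchyme and mural list, where Col3a1 (-2.28) is lower, while open points of the same tissues spread to both sides of 0, up to 2.05 for Lum.

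The blood genes moved in the same direction as the markers. Of 12 blood genes 10 had an entry, and all 10 of these were higher in bulk EC, with a summed level of 505.8 RPKM in GFP-depleted EC against 1993 in bulk EC. Of these, 9 stayed past 1.5 fold after GC correction. Lyz2 alone was listed at 0, in GFP-depleted EC. In the endothelial list bulk EC had the higher level for 5 of 14 genes, led by Eng (10.2 and 63.0 RPKM), with a list median of -0.14. After GC correction Eng alone of the 5 stayed past 1.5 fold, Plvap turned to 0.18, and the median was -0.01. No gene of 12 in the housekeeping list passed the rule, and its median was 0.28. The markers were somewhat richer in G and C than the table, with a median exonic GC content of 52.4% (46.6% to 57.9%) beside 49.6% over all genes. With the trend over GC content subtracted, all 10 stayed past 1.5 fold and their median log2 ratio was -1.85. Tubb3 moved from -1.42 to -0.85 and Krt18 from -1.58 to -1.15. The part of the blood transcripts and of depth in the marker differences was not tested, and genotype, sort and library cannot be told apart with 1 library per group.

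**Figure D4:**
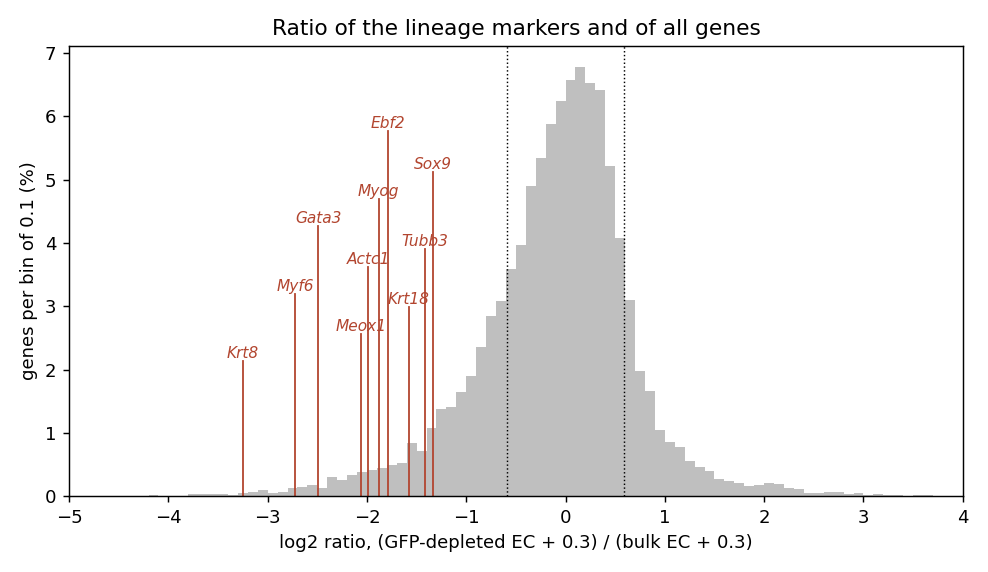
Distribution of the log2 ratio (GFP-depleted EC over bulk EC, 0.3 added to both values) over all 12684 genes in bins of 0.1 (grey, percent of genes) with the 10 markers as red lines, whose heights only separate the names; dotted lines mark 1.5 fold. The markers span -3.25 (Krt8) to -1.33 (Sox9), all left of the dotted line toward bulk EC.

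By the known class of protein 6 are transcription factors and 4 are subunits of the cytoskeleton, and the median log2 ratios of these subsets were -1.97 and -1.78. Their exonic length had a median of 1836.5 bases, shorter than the 3394.5 of all genes, which gives fewer reads at the same RPKM. They lie on 7 chromosomes, with Krt8 and Krt18 as the only neighbours.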

How the data were processed

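RNA-seq was compared between 1 library of bulk EC and 1 library of GFP-depleted EC. The study amplified cDNA by SMART chemistry, sequenced both libraries in a single HiSeq lane and used the mm9 build. BWA 0.5.7 and Cuffdiff are named in the submitters' processing notes with no role. The authors deposited an RPKM value per gene and library and a column of fold changes, which was not used. Not given in the sources used here were the annotation release, strand use, and how reads were counted or multiple matches treated.

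The 12899 entries were reduced to 12684 genes by keeping, for a repeated symbol, the entry with the highest mean. A gene was higher in a library at a plain ratio above 1.5 with at least 0.3 RPKM in 1 library. The study used the same numbers, but its methods do not say whether 1 or both libraries had to reach 0.3. Log2 ratios had 0.3 added to both values, which understates the change of low genes. The markers and gene lists were chosen with earlier results of these data known. Genes were named by rule: all 10 markers, and of each tissue list the 3 largest log2 ratios past 1.5 fold where the higher level reached 1 RPKM, the most abundant gene and every gene higher in GFP-depleted EC. All genes of the markers' families with an entry were named too. Further genes, among them those that stayed within 1.5 fold, were chosen after their values were seen. With 2 libraries each gene has 1 ratio, so no measure of similarity between patterns was used.

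Depth was recovered from features under 150 bases, whose values were whole multiples of 1 covered base (tolerance 0.15) for 98.9% of 369 features in GFP-depleted EC against 98.1% of 360 in bulk EC. Reads were taken as 100 bases long, which is an assumption. Of 344 genes with few covered bases, 25.9% lay near a whole multiple of 100 bases. The share was 31.4% at 50 bases, a length that is more easily met. All read numbers and counting intervals rest on this length. Exon length, GC content and overlap came from GENCODE M1 on mm9, matched by identifier for 95.7% of genes. RefSeq promoters matched 6 of the 10 markers. Near-identical loci were sought with BLAST 2.17.0 (identity of at least 95% over at least 100 bases). Calculations used Python 3.11.15, numpy 2.4.6, pandas 2.3.3, scipy 1.17.1 and statsmodels 0.14.6 (GC trend by lowess, span 0.3), and were tested on simulated data. Alternatives were pseudocounts of 0.1 and 1, a minimum of 1 RPKM or none, a threshold of 2 fold, median and quantile scaling, GC correction, added repeats and protein-coding genes.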

Additional observations from a re-analysis of the deposited data

How the results depend on the processing

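All 10 markers remained higher in bulk EC under each of 10 alternative settings and, in a further one chosen after seeing the data, with the whole counting interval past 1.5 fold. Several settings could not change this count. No marker had a repeated entry, all were protein-coding and reached 1 RPKM in bulk EC, and the smallest ratio was 2.69 fold. Adding repeats, keeping protein-coding genes, the other minima and the threshold of 2 fold therefore left the markers as they were. The markers were also chosen by these values, so the settings are no check of their direction. With 0.3 RPKM required in both libraries, also chosen after seeing the data, 6 passed, since this setting removes the 4 markers under 0.3 RPKM in GFP-depleted EC, and of the other tissue genes 2 in place of 4 were higher in GFP-depleted EC. No marker changed sign under any of the 8 alternatives that give a log2 ratio. The median log2 ratio of the markers moved to -1.35 with a pseudocount of 1 and to -2.29 with a pseudocount of 0.1, and lay between -1.80 and -1.94 in the others. Over all genes, 1683 were higher in bulk EC against 839 in the GFP-depleted library at a threshold of 2 fold, against 2997 and 1939 at 1.5 fold, since the stricter threshold passes fewer genes. With the whole counting interval past 1.5 fold, 1053 were higher in GFP-depleted EC. Quantile scaling gave 50.8% of all calls toward bulk EC in place of 60.7%. The count of 25 genes in the tissue lists stayed between 18 and 25. With a minimum of 1 RPKM, the medians of the somite, muscle and epithelial lists moved to -1.32, -0.12 and -1.31, since fewer genes were left. The setting without a minimum changed nothing. No paired analysis was possible because neither group holds more than 1 library, and for the same reason no library could be left out. Values of 0 to 11 reads in GFP-depleted EC limit the ratios of Myf6, Krt8, Meox1, Myog and Ebf2.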
